A study of Mus musculus with 4 samples.

Results

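The IL-1 family and inflammasome genes described here are 10 mouse genes taken by name: Il1a, Il1b, Il1rn, Il1r2, Il18, Casp1, Casp4, Nlrp3, Pycard and Gsdmd. They were found through the gene symbols of the array's annotation, which gave 11 features (probe sets) of 41345 on the array, 2 of them for Gsdmd. For Gsdmd the feature with the higher mean was used. The 10 genes are part of 17542 genes with a name of their own. Of those, 11091 reached a log2 signal of 5.43, which is the overall median of the table, on 1 or more arrays, and the 10 genes did so on each of the 4 arrays. That level is a convention and not a measured background.

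IL-1 alpha and IL-1 beta are inflammatory cytokines that act on the same receptor, and Il1rn and Il1r2 encode proteins that block them. LPS, a bacterial ligand of Toll-like receptor 4, induces the Il1b transcript, but the protein is made as an inactive precursor. An inflammasome, in which the sensor NLRP3 recruits the adaptor ASC (Pycard) and caspase-1, cuts IL-1 beta and IL-18 to their active forms and opens gasdermin D pores in the cell membrane. Type 1 conventional dendritic cells (cDC1) are specialised in showing captured antigen to CD8 T cells. Transcript signals say nothing of that cutting step.

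RNA was measured in mouse type 1 conventional dendritic cells of C57BL/6 mice aged 10 weeks and labelled female. Cells of wild-type mice (WT) and of mice without XCR1 (XCR1-deficient, KO) received LPS at 100 ng/ml, alone or with recombinant mouse XCL1 at 100 ng/ml. XCR1 is a chemokine receptor, and XCL1 is its ligand. All 4 groups received LPS, so no array shows resting cells. Each group is 1 MoGene ST 2.0 array. The sources used here do not give how the cells were obtained, how long they were treated, whether mice were pooled or where the XCR1 deletion lies. No difference below has a replicate, an error or a p-value, and 4 arrays limit the precision. As a guide to size only, the difference between a pair of arrays varied among features of the same gene with an SD of 0.17 to 0.23 per feature (443 genes). That SD leaves out any variation between arrays that the features of a gene share.

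Some array-wide values bear on these comparisons. Of 10 measured cDC1 markers, 9 passed the limit, with Itgae below it on all arrays and Clec9a not named on its own. Xcr1 gave 6.42 and 7.19 on the WT arrays and 5.54 and 5.11 on the KO arrays. Markers of B cells (7 of 7 measured) and of T and NK cells (7 of 8) passed it too. Xist, an RNA of female cells, was at 7.95 and 7.91 in WT but at 4.64 and 4.57 in KO. The Y-linked genes Eif2s3y (8.57 to 8.89), Uty (8.27 to 8.46) and Kdm5d (7.01 to 7.16) gave signals past the limit on all 4 arrays, which goes against the labelled sex. The array names carry 2 prefixes, 1 for each genotype, so genotype cannot be told apart from whatever those prefixes stand for, nor from what Xist reflects.

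The bases just upstream of the transcripts are shown for the 5 members with the widest range over the arrays and for Casp4, which had the largest difference of all members between the genotypes with LPS alone. RefSeq windows were at hand for 9 of the 10 genes (13 windows, build GRCm38.p6), and the 250 bases before the annotated start are printed 5′ to 3′ along the strand of the gene. Capitals mark matches to 6 motifs, chosen with the values known and searched on both strands: the TATA box in the form TATAAA, the AP-1 site TGANTCA, the PU.1 site GAGGAAGT, the C/EBP site TTGCNNAA, a short IRF pattern GAAANNGAA and the kappaB consensus. The Il1b window is chr2:129371140-129371389 and that of Il1a is chr2:129309973-129310222, both on the minus strand. The Il1rn window is chr2:24336610-24336859 on the plus strand, that of Pycard is chr7:127993868-127994117 on the minus strand, and those of Casp4 (chr9:5308599-5308848) and Il1r2 (chr1:40085843-40086092) are on the plus strand.
Il1b: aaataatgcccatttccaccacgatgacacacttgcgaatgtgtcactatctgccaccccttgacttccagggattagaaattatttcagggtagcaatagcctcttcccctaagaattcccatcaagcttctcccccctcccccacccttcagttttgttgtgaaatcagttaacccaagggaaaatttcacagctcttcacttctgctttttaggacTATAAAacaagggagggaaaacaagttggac
Il1a: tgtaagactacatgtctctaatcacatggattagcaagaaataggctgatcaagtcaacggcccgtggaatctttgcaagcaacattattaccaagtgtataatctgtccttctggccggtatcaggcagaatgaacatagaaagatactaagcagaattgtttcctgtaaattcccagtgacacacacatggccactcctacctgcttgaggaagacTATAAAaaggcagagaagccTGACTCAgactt
Il1rn: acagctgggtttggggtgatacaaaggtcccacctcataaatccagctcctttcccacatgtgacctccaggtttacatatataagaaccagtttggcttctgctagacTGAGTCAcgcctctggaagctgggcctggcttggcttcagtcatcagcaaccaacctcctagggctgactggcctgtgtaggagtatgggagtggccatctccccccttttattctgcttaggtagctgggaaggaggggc
Pycard: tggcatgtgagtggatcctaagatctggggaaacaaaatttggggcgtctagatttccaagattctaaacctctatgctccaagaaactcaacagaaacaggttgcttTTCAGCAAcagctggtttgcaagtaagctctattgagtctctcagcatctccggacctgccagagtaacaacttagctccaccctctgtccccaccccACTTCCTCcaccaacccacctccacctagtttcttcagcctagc
Casp4: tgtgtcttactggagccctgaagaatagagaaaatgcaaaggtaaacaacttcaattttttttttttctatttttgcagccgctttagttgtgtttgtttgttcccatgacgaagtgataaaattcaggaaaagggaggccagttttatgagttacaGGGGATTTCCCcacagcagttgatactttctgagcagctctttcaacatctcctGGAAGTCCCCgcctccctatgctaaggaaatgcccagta
Il1r2: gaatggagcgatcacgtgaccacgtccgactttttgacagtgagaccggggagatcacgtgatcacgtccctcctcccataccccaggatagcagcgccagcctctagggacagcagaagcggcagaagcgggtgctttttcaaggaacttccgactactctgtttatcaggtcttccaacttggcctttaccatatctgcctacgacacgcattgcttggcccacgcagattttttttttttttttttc

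A TATA box stood at -31 to -26 from the start in Il1b and at -32 to -27 in Il1a, and 12.4% of all 32851 windows of this length hold one somewhere. An AP-1 match was found at -12 to -6 in Il1a and at -141 to -135 in Il1rn (6.75% of all windows). Pycard held a PU.1 match at -44 to -37 (2.44%) and a C/EBP match at -142 to -135 (9.56%). Casp4 held a pair of overlapping kappaB matches from -93 to -83 and another at -39 to -30 (7.25%). None of the 13 windows, which cover 9 of the 10 genes, matched the IRF pattern (7.13% of all windows). At that share, 13 windows are too few for this absence to say anything of these genes. The Il1r2 window matched none of the 6 motifs. Il1rn, Casp4 and Nlrp3 have windows at further annotated starts. The windows of Il1a, Il1b and Il1r2 lie before a transcript start that is not the annotated start of the gene. Their motif positions, and the lack of matches in Il1r2, apply to that transcript start only. The letters were matched only, and binding was not measured.

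Among the ligands, Il1b, which encodes IL-1 beta, had its lowest signal on the WT array with XCL1. Its log2 signal was 12.21 in WT with LPS, 11.86 in WT with LPS and XCL1, 12.42 in KO with LPS and 12.43 in KO with LPS and XCL1. The WT array with XCL1 stood apart below, and both KO arrays lay above both WT arrays, as in 18.9% of all genes past the limit. With XCL1 the WT signal was 1.28-fold lower (a log2 difference of -0.35), while the KO pair differed by 0.01. Over all genes past the limit, 5.70% differed as much as Il1b with XCL1 in WT. Of 154 other genes with a mean signal within 1 log2 unit of that of Il1b, none differed as much in that pair. It was the lowest such count over all members and comparisons, and was picked for that reason. For the other members in that pair, the counts ran from 216 of 2119 genes (Il1a) to 3514 of 5164 (Il18). For Il1b they were 146 of 154 for XCL1 in KO, 24 for KO minus WT with LPS and 2 with LPS and XCL1. Whether the Il1b difference exceeds that between replicate arrays was not tested.

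Il1a, which encodes IL-1 alpha, gave 9.18 and 9.0 in WT without and with XCL1, and 9.38 and 9.63 in KO. Its signal was thus lower with XCL1 in WT (-0.19) and higher in KO (0.25), and both KO arrays were above both WT arrays. The KO exceeded the WT by 0.20 with LPS alone and by 0.64 with XCL1 added, a 1.55-fold difference.

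Il1rn, the gene of the IL-1 receptor antagonist, was also higher in the KO, and XCL1 made less difference to it. It gave 9.14 and 9.07 in WT and 9.52 and 9.66 in KO. The KO signal exceeded the WT signal by 0.38 with LPS (1.30-fold) and by 0.59 when XCL1 was added. An agonist and its antagonist therefore differed in the same direction between the genotypes.

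Il18 encodes the other cytokine that caspase-1 matures. It gave 6.86 and 6.79 in WT and 7.10 and 7.28 in KO. Both KO arrays were again above both WT arrays, as in 18.9% of all genes past the limit. The KO minus WT difference was 0.24 with LPS alone and 0.48 with XCL1 added, under 1.5-fold in both pairs.

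Il1r2, the decoy receptor that binds IL-1 without signalling, ran the other way. Its signal was 6.20 in WT with LPS and 6.40 with XCL1 added, against 6.06 and 5.72 in KO. The WT array with XCL1 was the highest and the KO array with XCL1 the lowest, 1.60-fold apart (-0.68). XCL1 went with a higher signal in WT (0.20) and a lower one in KO (-0.34). This was the only member of the 10 with both KO arrays below both WT arrays, an order that 33.2% of all genes past the limit had.

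**Figure D1:**
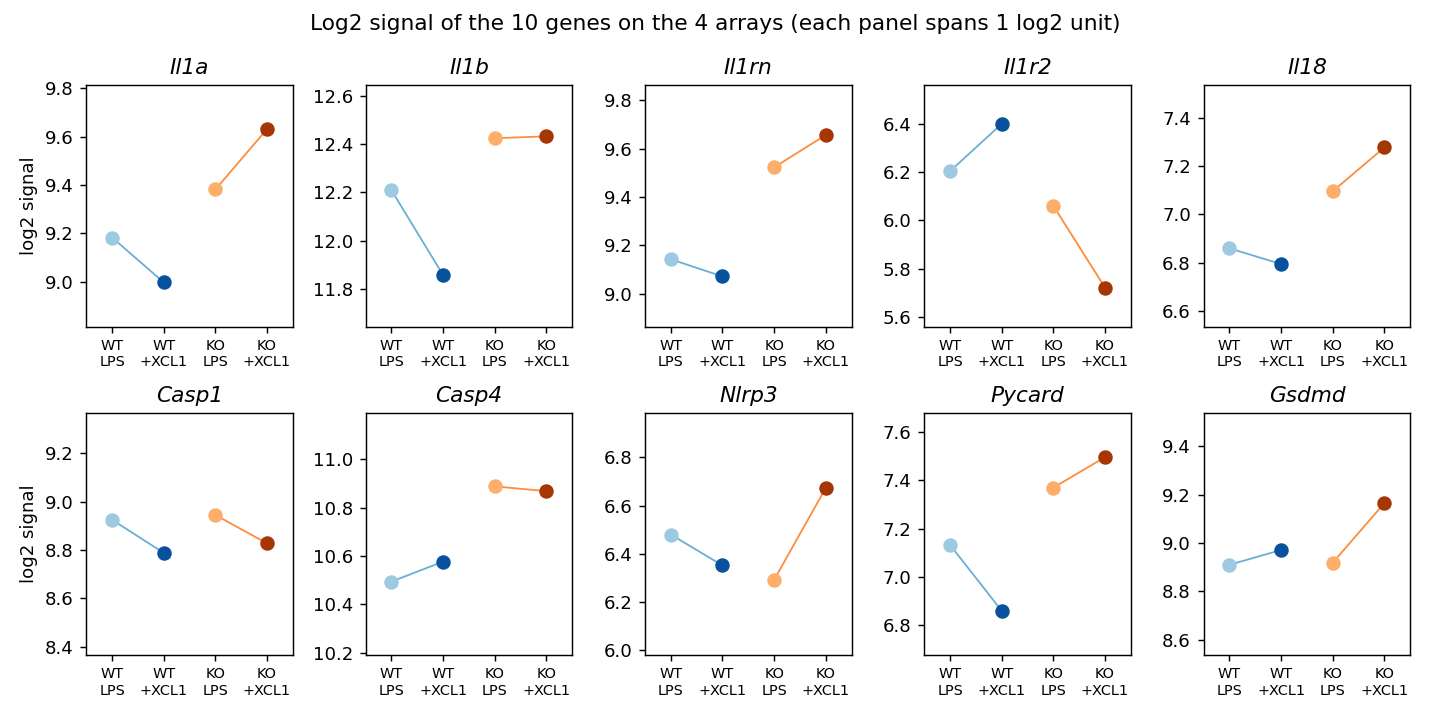
Log2 signal of each of the 10 genes on the 4 arrays, 1 panel a gene, each vertical axis spanning 1 log2 unit; each point is 1 array, lines join the arrays of a genotype without and with XCL1, and there are no replicates. Both KO arrays lie above both WT arrays for Il1a, Il1b, Il1rn, Il18, Casp4 and Pycard (18.9% of all genes past the limit). They lie below them for Il1r2 (33.2%).

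Among the inflammasome genes, Pycard, the adaptor that joins sensor and caspase, followed the pattern of the ligands. Its signal was 7.13 and 6.86 in WT and 7.37 and 7.50 in KO. The WT array with XCL1 was lowest and the KO array with XCL1 highest, with a difference of 0.64 (1.55-fold) between them. With LPS alone the genotypes differed by 0.24.

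Nlrp3, the sensor, did not separate the genotypes. Its signals of 6.48 and 6.35 in WT and 6.29 and 6.67 in KO put a KO array at each end. The difference with XCL1 was -0.13 in WT and 0.38 in KO, and the latter was the largest XCL1 difference of the 10 genes in either genotype.

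The pair of inflammatory caspases differed from each other in pattern. Casp1, the protease of the canonical inflammasome, spanned 0.16 in all, with signals of 8.92 and 8.79 in WT and 8.94 and 8.83 in KO. The genotypes overlapped, and both were lower with XCL1, at -0.14 and -0.12. Casp4, which encodes mouse caspase-11, the cytosolic LPS sensor of the non-canonical inflammasome, gave 10.49 and 10.58 in WT and 10.89 and 10.87 in KO. Its KO signal was higher by 0.39 with LPS alone and by 0.29 with XCL1 added, and it hardly moved with XCL1 (0.08 in WT and -0.02 in KO).

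Gsdmd, the pore-forming target of both caspases, lay at 8.91 and 8.97 in WT and 8.92 and 9.16 in KO. Its genotype difference was 0.01 with LPS and 0.19 with XCL1 added. The second, dimmer Gsdmd feature gave 0.07 and -0.04 for the same differences and 0.04 for XCL1 in KO, where the main feature gave 0.25.

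In WT cells, the question was what the ligand XCL1 adds to the response to LPS. None of the 10 genes differed by 1.5-fold (0.585 on the log2 scale), the threshold used for a called gene, and 0.559% of all genes past the limit were called. Signals were lower with XCL1 for 7 members and higher for 3, with a median of -0.10, whereas the median of all genes was 0.03. The differences ran from -0.35 for Il1b to 0.20 for Il1r2. The KO pair received the same treatment without the receptor. Again no member was called (1.03% of all genes), but 7 members were higher and 3 lower, with a median of 0.13 against 0.04 for all genes. Values ran from -0.34 for Il1r2 to 0.38 for Nlrp3.

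The XCL1 difference changed sign between WT and KO for 8 of the 10 genes. It was below 0 in WT and above 0 in KO for Il1a, Il1b, Il1rn, Il18, Nlrp3 and Pycard, and the reverse for Il1r2 and Casp4. Over all genes past the limit, 22.5% were lower in WT and higher in KO and 21.1% were the reverse. Of the members that changed sign, only Il1a and Il1r2 differed in both genotypes by more than the SD per feature (0.17 in WT and 0.20 in KO). Of all genes past the limit, 25.6% and 23.4% lay at least as far from 0 in WT as Il1a and Il1r2. In KO the shares were 19.1% and 8.84%. Setting the gene median of every array to the same value (centring) turned the small KO difference of Il1b to -0.06 and the WT difference of Gsdmd from 0.06 to -0.01. Centring also put Il1a in KO (0.18) and Il1r2 in WT (0.13) below the SD per feature. Nlrp3 (-0.19 in WT and 0.31 in KO) then exceeded it in both genotypes. The WT difference minus the KO difference had a median of -0.23 over the members, against -0.01 for all genes. It was farthest from 0 for Il1r2 (0.53), Nlrp3 (-0.51), Il1a (-0.44), Pycard (-0.40) and Il1b (-0.36), and no member reached 1.5-fold, where 2.93% of all genes did.

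**Figure D2:**
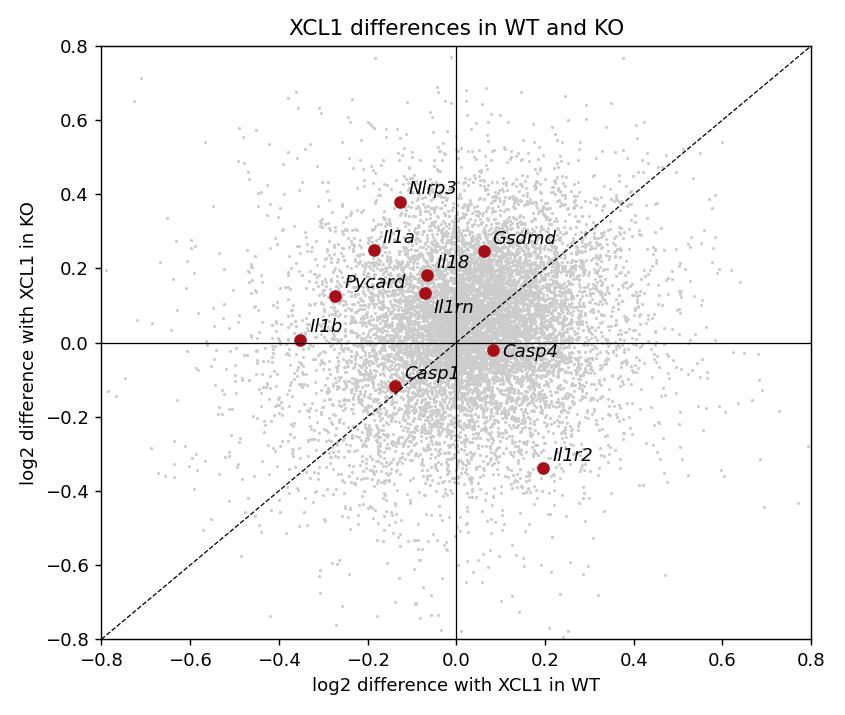
Log2 difference with XCL1 in WT (horizontal) against that in KO (vertical); red points are the 10 genes, grey points all genes past the limit on signal, with those beyond 0.8 on either axis not drawn, and the dashed line marks equal differences. Il1a, Il1b, Il1rn, Il18, Nlrp3 and Pycard lie left of 0 and above it, Il1r2 and Casp4 in the opposite quadrant.

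The genotype comparisons asked how KO cells differed from WT cells under each treatment. With LPS alone, 8 members were higher in the KO and 2 lower (Il1r2 and Nlrp3), with a median of 0.21, whereas the median of all genes was -0.05. No member was called, and 2.01% of all genes were. With LPS and XCL1, 9 members were higher and 1 lower, with a median of 0.40 against -0.04. The median of the members thus stood 0.26 and 0.44 above that of all genes, differences that centring leaves as they are. Here 4 of the 10 genes were called, where 3.48% of all genes were. Pycard (0.64), Il1a (0.64) and Il1rn (0.5852) were higher in the KO (1.7% of all genes) and Il1r2 (-0.68) was lower (1.79%). Il1rn was just inside the threshold and Il1b (0.57) just outside it. With centring on the gene median the 4 called members were Il1a, Il1b, Il1rn and Pycard, 4 higher and 0 lower, and Il1r2 was at -0.577. The same centring moved the split over all genes from 188 higher and 198 lower to 338 higher and 91 lower. No member was called in both genotype pairs, against 0.694% of all genes called in both in the same direction.

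**Figure D3:**
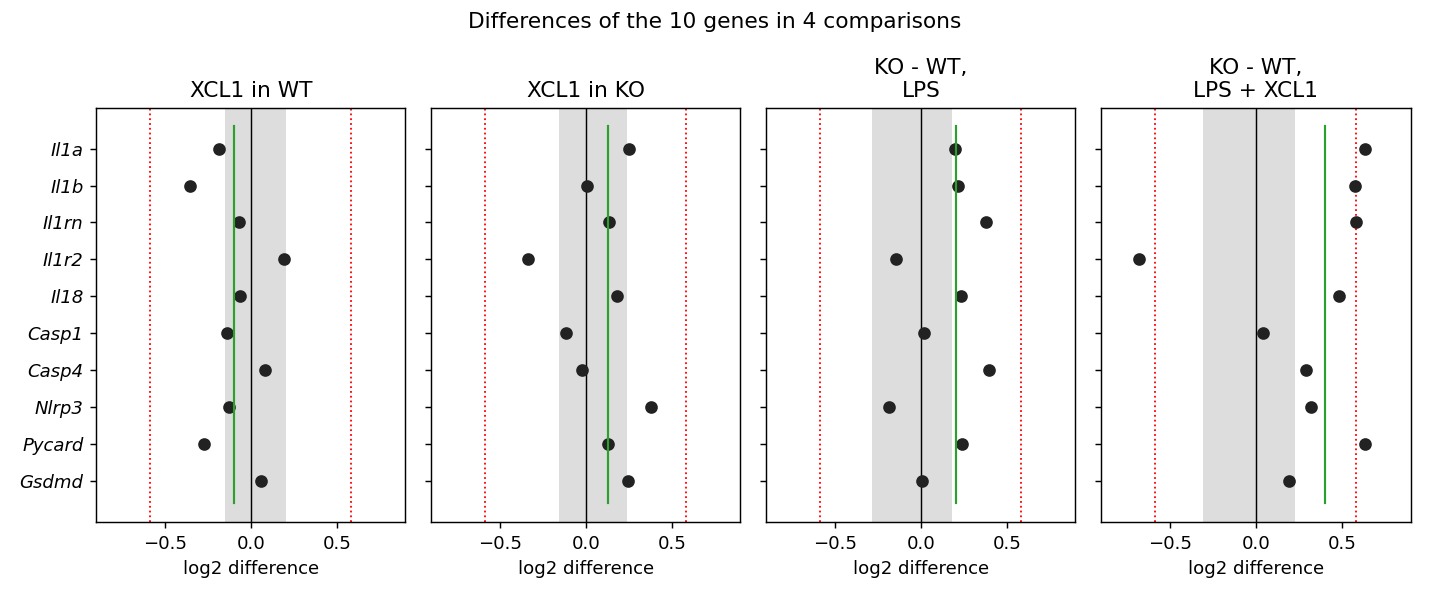
Log2 differences of the 10 genes in 4 comparisons; each point is a difference between single arrays, the green line is the median of the 10, the grey band is the median of all genes past the limit ± 1 SD over genes, and dotted red lines mark 1.5-fold. The median of the 10 is -0.10 and 0.13 for XCL1 in WT and KO and 0.21 and 0.40 for KO minus WT, with Il1r2 at -0.68 in the last panel.

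In 6 of the 10 genes (Il1a, Il1b, Il1rn, Il18, Casp4 and Pycard) both KO arrays exceeded both WT arrays, as in 18.9% of all genes. Il1r2 was the 1 member with the opposite order, which 33.2% of all genes had. The signals of Il1a, Il1b, Il1rn, Il18 and Pycard shared a stricter order, rising from WT with XCL1 over WT with LPS and KO with LPS to KO with XCL1. That order was found in 5 of 10 members and in 5.61% of all genes. It was picked from the signals of these same members, so the counts describe it and test nothing. The WT array with XCL1 enters both the WT XCL1 difference and the genotype difference with XCL1, so those comparisons are not independent for these genes.

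Summed linear signals of 3 of the 9 marker lists, for neutrophils, macrophages and monocytes, and mast cells and basophils, had that order too, but most of their single markers did not. The 12 neutrophil markers summed to 1387 in WT with XCL1, 1439 in WT with LPS, 1753 in KO with LPS and 1997 in KO with XCL1. Of these, 10 passed the limit, Ly6g and Retnlg were below it on all arrays, and 3 had the order themselves (S100a8, S100a9 and Ltf). S100a8, a calcium-binding protein abundant in neutrophils and the marker with the largest change in the sum, gave 7.92 and 7.68 in WT and 8.18 and 8.79 in KO, and the sum kept the order without it. Mpo and Mmp8 differed by -0.05 and -0.17 between the genotypes with LPS and XCL1, and the median of the 10 was 0.30. The 13 macrophage and monocyte markers summed to 4398, 4579, 4651 and 4787 in the same order of arrays, with 11 past the limit and Vsig4 and Cd163 below it on all arrays. That order rested on Fcgr1, an Fc receptor gene: without it the sums were 4131, 4312, 4116 and 4176, with KO with LPS the lowest. The 7 mast cell and basophil markers summed to 833, 935, 1092 and 1106, an order that rested on Kit, and Ms4a2, Gata2 and Fcer1a were below the limit on all arrays. These sums without a marker were chosen after seeing the data.

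Other marker lists separated the genotypes without that order. Red cell markers summed to 185 and 191 in WT without and with XCL1 and to 434 and 429 in KO, with 4 of 4 higher in the KO and medians of 1.18 and 1.14. Sums were lower in KO than in WT for B cell markers (1734 and 1685 against 2489 and 2582) and for T and NK cell markers (912 and 797 against 1180 and 1160). What share of the IL-1 signals comes from other cells was not tested, and fewer cells of a type and less RNA per cell cannot be told apart in these samples.

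The other genes of the pathway came from lists of 71 genes, of which 65 were named on their own and 47 passed the limit. None of the 47 was called with XCL1 in either genotype, where 0.559% (WT) and 1.03% (KO) of all genes were. In KO minus WT, 1 was higher and 1 lower with LPS alone, and 4 were higher and 1 lower when XCL1 was added, where 2.01% and 3.48% of all genes were called. Among other IL-1 family ligands, 2 of 5 measured passed the limit. Il1f9, the gene of IL-36 gamma, gave 7.07 and 7.03 in WT and 7.55 and 7.77 in KO, higher in the KO by 0.48 and 0.75. Il1f6, the gene of IL-36 alpha, was close to the limit on all arrays (5.47 to 5.57). Il33, which encodes an alarmin, was below it on all 4.

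Receptors and soluble inhibitors past the limit had medians of -0.01 with LPS and -0.04 with LPS and XCL1 for KO minus WT. Of 7 measured, Il1rap, Il18r1, Il18rap and Il18bp passed the limit. None was called in any comparison, where 0.559% to 3.48% of all genes were. The signalling receptor gene Il1r1 was below it on all arrays (5.23 at most). Il18bp, which encodes the inhibitor that traps IL-18, gave 8.10 and 8.28 in WT and 8.46 and 8.29 in KO, and its genotype difference was 0.37 with LPS and 0.01 with XCL1 added. For Il18rap, a subunit of the IL-18 receptor, the genotype differences were 0.07 and 0.24.

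Downstream of the receptor, 1 of 9 measured signalling genes was called, in KO minus WT with LPS and XCL1, where 3.48% of all genes were. Irak1, the kinase recruited by MYD88, differed by -0.36 with LPS and by -0.76 after LPS plus XCL1, with signals of 8.30 and 8.45 in WT and 7.95 and 7.68 in KO. Myd88, the adaptor of IL-1 and most Toll-like receptors, was higher in the KO by 0.33 and 0.42. The list's median was -0.0022 with LPS and 0.08 when XCL1 was added.

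Of 13 other inflammasome sensors measured, 8 passed the limit. Mefv, the gene of pyrin, gave 6.46 and 6.43 in WT and 6.89 and 7.24 in KO, a genotype difference of 0.43 and 0.80. Naip6, a member of the NAIP family, gave 7.69 and 7.80 in WT and 8.03 and 7.54 in KO, with a WT minus KO XCL1 difference of 0.60. The sensors had medians of 0.05 and -0.12 in the genotype pairs. Of 17 measured partners, 12 passed the limit and none was called in any comparison, where 0.559% to 3.48% of all genes were. Gbp5, a GTPase that promotes NLRP3 assembly, lay at 11.27 and 10.99 in WT and 11.43 and 11.50 in KO, an order of arrays like that of Il1b. The channel gene Panx1 was lower in the KO, at -0.27 and -0.52.

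For comparison, 12 of 14 other inflammatory cytokine genes passed the limit. Their median was -0.09 and 0.04 for XCL1 in WT and KO and -0.04 and 0.21 for KO minus WT. With XCL1 in WT, 9 of the 12 were lower and 3 higher. The WT minus KO XCL1 difference was below 0 for 11 of the 12, with a median of -0.12, against 8 of 10 and -0.23 for the members. Values below 0 were thus not particular to the members. Il6 was higher in the KO by 0.42 and 0.69 and the growth factor gene Csf1 by 0.64 and 0.70, while Il12b, which encodes the p40 subunit of IL-12, was lower, at -0.67 and -0.51. Tnf, another LPS target, was at -0.21 and -0.20. The KO signals were thus higher for some of these cytokine genes and lower for others.

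**Figure D4:**
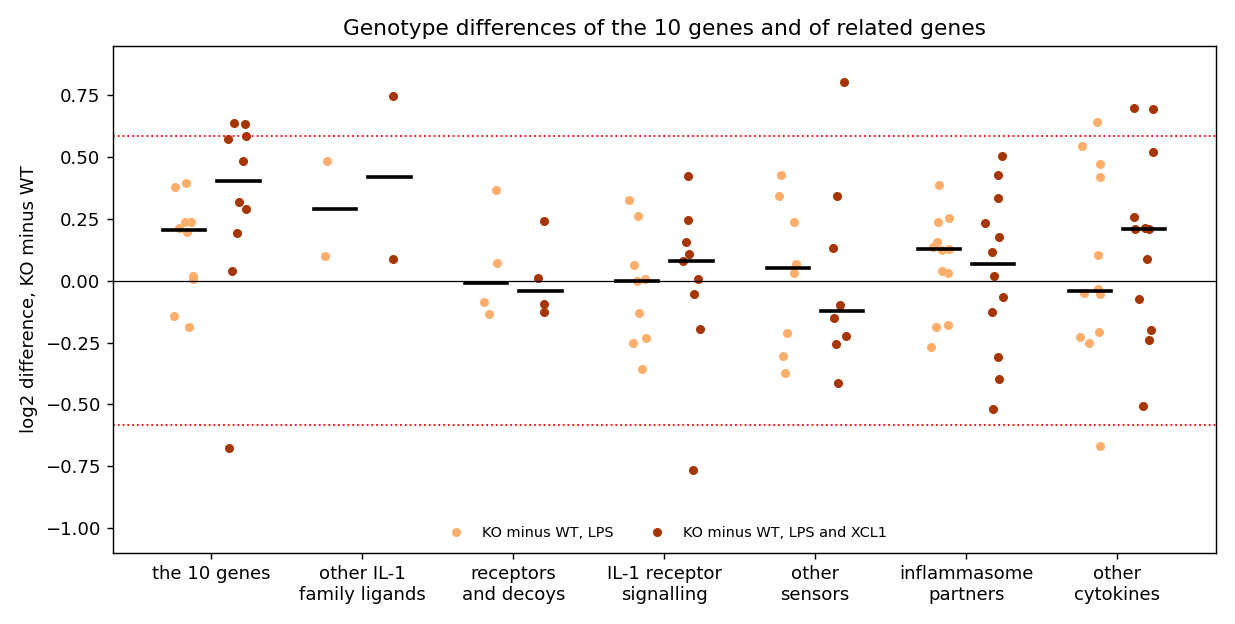
Log2 difference KO minus WT for the 10 genes and 6 lists of related genes past the limit, with LPS (light) and with LPS and XCL1 (dark); each point is a gene, black bars are list medians and dotted red lines mark 1.5-fold. The bars for the 10 genes stand at 0.21 and 0.40 and those of the receptors, signalling genes, sensors and partners between -0.12 and 0.13, while those of the 2 other IL-1 family ligands stand at 0.29 and 0.42 and those of the other cytokines at -0.04 and 0.21.

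The member with the widest range over the arrays was Il1r2 (0.68). The 5 genes nearest to it in pattern, by the root mean square difference after centring each gene on its mean over the 4 arrays, were Nudt16 (0.012), Trappc1 (0.022), Nosip (0.023), Siva1 (0.025) and Tmem150a (0.026), on the log2 scale. Nudt16, the nearest, gave 6.86 and 7.08 in WT and 6.73 and 6.37 in KO.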

How the data were processed

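Each of the 4 samples is 1 array, and each genotype and treatment is 1 group. The deposited values are log2 signals per feature, which the authors made with RMA, per the labels. This method subtracts background, gives the arrays like distributions and combines probes, so a shift of most genes cannot be seen. The program and the annotation build are not named in the labels. Array medians were 5.40 to 5.44.

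Of 41345 features, 23521 had 1 gene symbol, 1814 several and 16010 none. RefSeq held 23328 of the gene IDs. Features with several symbols, and 4809 of olfactory receptors, small RNAs, antigen receptor segments and predicted genes, were not used. The brightest feature of a gene was used. Differences between arrays were computed in Python 3.11.15, with no test. A gene was called at 1.5-fold with a signal of at least 5.43 on 1 array.

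The members and lists were chosen with earlier results of these data known. All 10 members were named. Of each pathway list, genes at 1.5-fold in any comparison were named, filled up to 2 by size of difference, and so were the 5 genes most like the member of widest range. Other genes named (Il33, Il1r1, Il1rap, Il18r1, Tnf) and the cell type markers singled out were chosen after their values were seen. Alternatives were a 2-fold threshold, no limit, a limit at the 75th percentile (6.91), dim signals raised to the limit, cyclic loess (limma 3.58.1, span 0.7, 3 iterations), centring on the gene median and the mean of features.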

Additional observations from a re-analysis of the deposited data

Results flagged for a closer look

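For 8 of the 10 genes the difference with XCL1 had opposite signs in WT and KO, with 1 pair of arrays in each genotype, and this was not tested. Of all genes past the limit, 22.5% were lower in WT and higher in KO, and 21.1% were the reverse. The WT difference minus the KO difference, on the log2 scale, was -0.44 for Il1a, -0.36 for Il1b, -0.20 for Il1rn, -0.25 for Il18, -0.51 for Nlrp3 and -0.40 for Pycard. It was 0.53 for Il1r2 and 0.10 for Casp4. The KO difference of Il1b was 0.01 and that of Casp4 -0.02, so their signs rest on values near 0. For Il1rn, Il18, Nlrp3 and Pycard too, the difference in WT, in KO or in both was below the SD per feature. That SD was 0.17 for XCL1 in WT and 0.20 for XCL1 in KO. Only Il1a and Il1r2 exceeded it in both genotypes. With centring on the gene median neither did, and only Nlrp3 (-0.19 in WT and 0.31 in KO) exceeded it in both.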

How the results depend on the processing

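Between the genotypes with LPS and XCL1, 0 of the 10 genes reached a 2-fold threshold (0.379% of all genes did), where 4 reached 1.5-fold (3.48%). The count there was 3 with cyclic loess (3.4% of all genes), which put Il1rn at 0.582. It was 3 of 8 genes with the stricter limit (3.22%), which left out Il1r2 and Nlrp3. Under all alternatives run, the counts for the other comparisons were 0, where 0.018% to 4.32% of all genes were called. Medians over the members kept their sign in each comparison and moved by less than the spread between features of a gene. With centring on the gene median they were -0.17 and 0.06 for XCL1 in WT and KO and 0.31 and 0.50 for the genotype pairs, while the median of all genes moved from -0.05 to 0.05 with LPS and from -0.04 to 0.06 with LPS and XCL1. Of 290 member differences recomputed, 185 could not move, since all members pass the limit and only Gsdmd has a second feature. The other 105 moved by at most 0.15, less than that spread. Besides the sign changes of Il1b and Gsdmd with centring, the WT minus KO value of Casp1 went from -0.02 to 0.00 with cyclic loess. No paired analysis was possible because each group holds 1 array, and no replicate could be left out. A table of signals has no detection flags, so how far a dim signal stands above background is unknown.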
